A study of Arabidopsis thaliana with 6 samples.

Results

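Leaves of ore15-2 plants were compared with leaves of Col plants, using both ore15-2 arrays and both Col arrays, 4 of the 6 arrays of the study. The members of each group were taken from the genotype in the sample labels. All plants were Arabidopsis thaliana. ore15-2 plants carry the ore15-2 allele of ORE15 (AT1G31040), known as a loss-of-function allele. Col plants are the wild type. The remaining 2 arrays, from plants with the dominant ore15-1D allele, entered only the estimate of the spread, the choice of tested loci and probes and, where stated, a comparison value. Leaves 3 or 4 were harvested at an age of 4 days, 5 h into the light, from soil-grown plants aged 13 days that had 16 h of light and 8 h of dark each day. The mutant is represented by a single allele, and the sources used here do not give its crossing history.

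ORE15 encodes a PLATZ protein, a plant-specific zinc-binding protein that binds A/T-rich DNA and lowers transcription. In Arabidopsis leaves it is known as a regulator of leaf growth through the length of the cell proliferation phase, and of the onset of leaf senescence. Young leaves of this age still divide at the base while cells further out expand and build photosynthetic capacity, so that division, cell wall, ribosome and organelle gene expression genes are all active in them.

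RNA was hybridised to 1-colour Agilent arrays, and a level is the log2 of the processed spot signal minus the 75th percentile of its array, so that 0 marks a bright probe. The 75th percentile of the signal was 812.8 and 748.8 on the ore15-2 arrays and 928.9 and 861.6 on the Col arrays. Over all 6 arrays 67.8% to 73.0% of the probe spots were well above background, and 0 spots were saturated. With 2 arrays per genotype, precision is limited by their number. Replicate arrays correlated at 0.989 in ore15-2 and at 0.987 in Col. Slide 2 held both ore15-2 arrays together with Col replicate 2, while slide 1 held Col replicate 1 and the ore15-1D arrays. Differences are ore15-2 mean minus Col mean on the log2 scale (n = 2 arrays each), given with the standard error (SE) from limma. The words rose, fell and changed are kept for loci with a Benjamini-Hochberg adjusted p below 0.05 by the two-sided limma test, taken over all tested loci.

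ORE15 itself was read first. Its probe gave levels of -6.38 and -8.44 in ore15-2 leaves, against -4.90 and -4.79 in Col leaves. The ore15-2 arrays lay below both Col arrays, and 1 of 2 ore15-2 arrays and 2 of 2 Col arrays had it well above background. The difference of -2.56 ± 0.67 (SE) did not pass the limma test (adjusted p = 0.125). The probe covers chromosome 1 positions 11069800 to 11069859 of TAIR10. Because the sources used here do not place the lesion of the allele, its value does not check the genotype.

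Of 20270 tested loci 760 changed, which is 3.75%. The higher loci numbered 435 (2.15%) and the lower loci 325 (1.6%). Of the higher loci 57.7% lay together in a single stretch of chromosome 1 that ends next to ORE15, described first below. Outside it 19851 loci were tested, of which 508 changed (2.56%), 184 upward (0.927%) and 324 downward (1.63%). Their median difference was 0.00, with quartiles of -0.18 and 0.19, and 24.9% of them had both ore15-2 arrays above both Col arrays, against 26.7% with both below.

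These calls depend on which arrays enter the fit. With slide as a block 1 locus passed, AT5G24240, named here after its values were seen, and with slide 2 alone or without ore15-2 replicate 2 limma called 0 loci, although 2330 and 3269 had an unadjusted p under 0.05. AT5G24240, with a difference of 6.63 in the fit with slide as a block, is not among the 760 changed loci. In that fit the lowest adjusted p among the 760 was 0.0868 (limma). The raised stretch also enters the adjustment of the p-values. When they were adjusted again over the loci outside it, 151 of the loci outside changed (56 higher and 95 lower), and counts given below as "after re-adjustment" use that rule. Of 115 genes outside the interval that are described below as changed, 54 passed it and 61 did not, with adjusted p between 0.05 and 0.072 (limma). Those 61 include AT5G35375, AT2G16367, LHY, MIOX2, ERD5 and GRP7 among the largest differences. At an unadjusted p under 0.05, 9.54% of the loci outside the interval were higher and 11.4% lower, the shares against which the unadjusted counts of families are to be read.

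Nearly every gene in a 2.35 Mb interval of chromosome 1 was higher in ore15-2 leaves than in Col leaves. The interval runs from AT1G24560 to AT1G31020, chromosome 1 positions 8705526 to 11058666 of TAIR10, and its last probe ends 11.1 kb before the ORE15 probe. Of 567 loci with a probe there, 419 were tested. The median difference was 0.92, a 1.89-fold higher signal, with quartiles of 0.69 and 1.09. Of these loci 251 rose (59.9%), 1 fell, and 413 (98.6%) had a difference above 0. In 377 of them both ore15-2 arrays lay above both Col arrays. The ends of the interval were set from these same differences, as the run of neighbouring loci with the highest sum of differences, so its counts are a description and carry no test of their own.

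The rise was alike in each pairing of arrays. The median over the interval was 0.94 for ore15-2 replicate 1 against Col replicate 1 and 0.92 against Col replicate 2. It was 0.93 for ore15-2 replicate 2 against Col replicate 1 and 0.90 against Col replicate 2. The Col arrays differed from each other by a median of -0.02 there (replicate 1 minus replicate 2), and ore15-1D minus Col gave -0.04. With slide as a block the median was 0.90, and although no locus of the interval passed in that fit, 338 of the 419 were higher at an unadjusted p under 0.05.

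**Figure D1:**
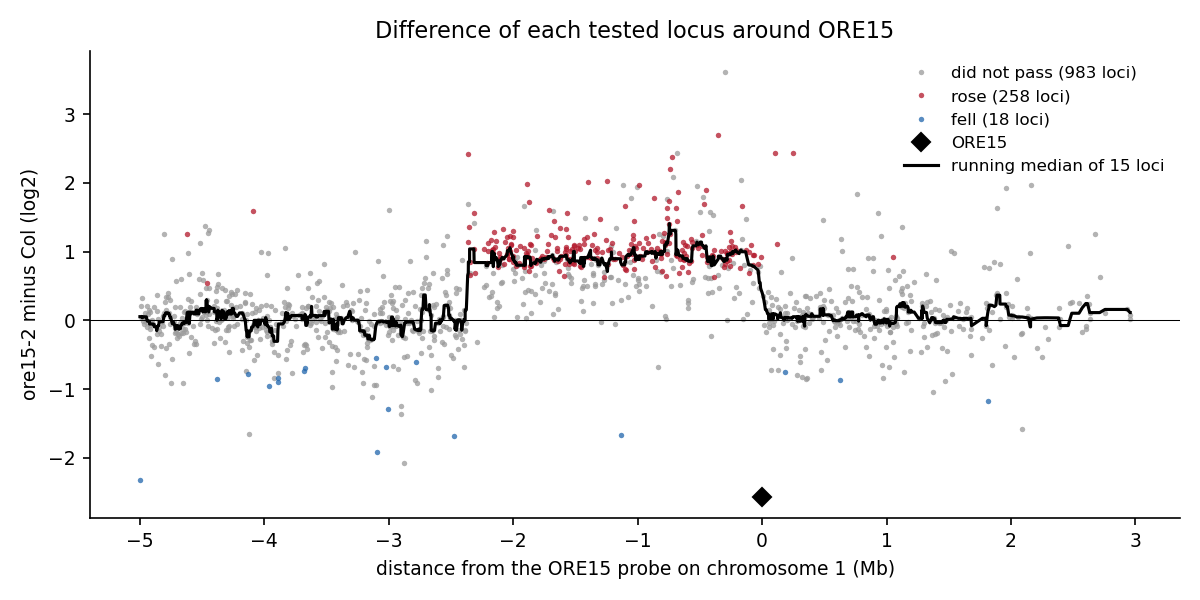
Difference between ore15-2 and Col leaves (log2, vertical axis) of each tested locus against its distance in Mb from the ORE15 probe on chromosome 1. Red points rose, blue points fell and grey points did not pass, the diamond is ORE15, and the line is the running median of 15 loci, which sits near 0.92 from 2.35 Mb before ORE15 up to ORE15 and near 0 on both sides.

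The rule that set both ends of the interval places a high locus just inside each. The step at the ends is therefore partly built in. The loci beside them are named for their position. The last probe before it, of AT1G24530, gave -0.04 ± 0.23 (SE), and the first inside it, 11.0 kb further on, of AT1G24560, rose by 1.14 ± 0.11. At the other end TO2 (AT1G31020), a mitochondrial thioredoxin, had levels of 0.67 and 0.47 in ore15-2 leaves, against -0.39 and -0.32 in Col leaves. It rose by 0.93 ± 0.10, and AT1G31050, the next locus after ORE15, gave 0.35 ± 0.26 and did not pass. The 50 tested loci before the interval had a median of 0.01 with 0 higher by limma, and the 50 after it a median of 0.04 with 3 higher. Cut into 24 bins of 100 kb, the interval had medians from 0.71 to 1.36, and in 18 of the bins over 50% of the loci were higher.

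**Figure D2:**
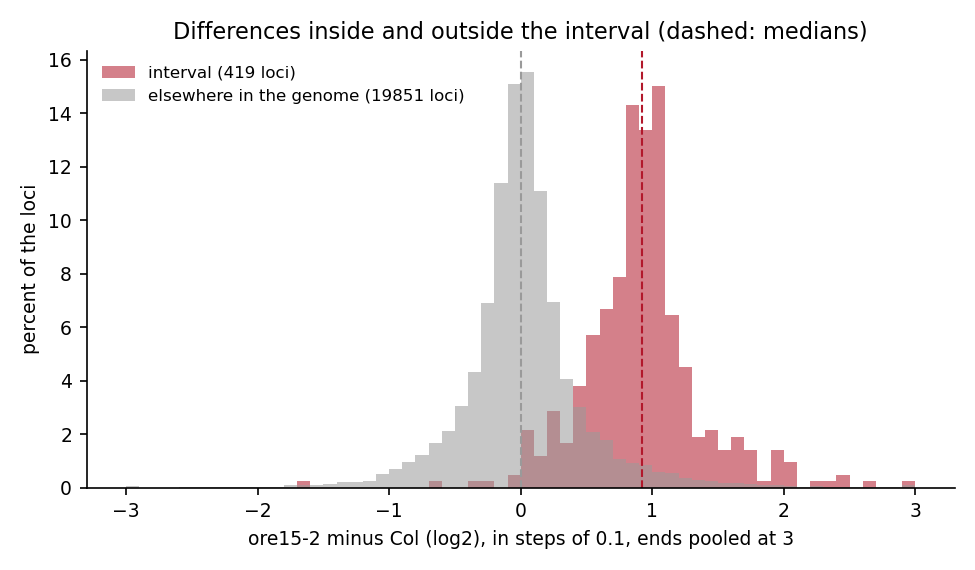
Share of loci (percent, vertical axis) by difference between ore15-2 and Col leaves (log2, horizontal axis) for the 419 tested loci of the chromosome 1 interval and the 19851 elsewhere, with dashed lines at the medians of 0.92 and 0.00. The 2 distributions differ in place, and 78.0% of the interval's loci lie between 0.5 and 1.5, against 8.73% elsewhere.

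The median rise changed little with the level of the gene, although the brightest loci, given below, rose less. Split by level into 4 equal groups, from the lowest to the highest, the interval's loci had medians of 0.87, 0.94, 0.94 and 0.89, while the share called higher was 30.5%, 62.5%, 77.1% and 69.5%. The other windows of the genome showed no comparable shift. Among 102 other windows of 1 Mb with at least 50 tested loci, none held more than 3.75% higher loci, and their medians ran from -0.06 to 0.07. The next highest run by the same rule was 18 loci on chromosome 4, from AT4G23160 to AT4G23320, with a median of 0.83. By chromosome, 292 of 5287 tested loci rose on chromosome 1, and between 21 and 47 rose on each of chromosomes 2 to 5. DNA copy number was not measured in these samples, and the cause of the raised interval was not tested.

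Genes of unrelated function rose together in the interval. FBR12, the translation factor eIF-5A, had levels of 6.07 and 5.98 in ore15-2 leaves, against 5.12 and 5.34 in Col leaves, a rise of 0.80 ± 0.11 (SE). The ribosomal protein L34 genes AT1G29070 and AT1G26880 rose by 1.12 ± 0.08 and 0.89 ± 0.11, and RPL18AA, of the large subunit, by 1.19 ± 0.10. SOG1, the transcription factor of the DNA damage response, rose by 0.81 ± 0.08, and HB-1, a homeobox factor, by 0.94 ± 0.09. These are housekeeping and regulatory genes of differing level that share the interval's typical difference. EXPA10, an expansin that loosens cell walls, rose by 1.22 ± 0.09, and UGT78D1, a flavonol rhamnosyltransferase, by 1.28 ± 0.11. Cpn60beta4, a subunit of the chloroplast chaperonin, rose by 0.93 ± 0.10, and SUF4, which takes part in the control of flowering time, by 0.82 ± 0.10.

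The 37 loci of the interval with a difference above 1.5 stood above its general rise. DLAH, a lipase-like hydrolase, had levels of -1.97 and -2.74 in ore15-2 leaves, against -4.84 and -5.27 in Col leaves, and rose by 2.70 ± 0.35. GH3.17, an enzyme that joins auxin to an amino acid, had -1.60 and -1.51 in ore15-2 leaves, against -3.58 and -3.58 in Col leaves, and rose by 2.03 ± 0.08. AT1G24580, a RING protein near the first end, rose by 2.42 ± 0.38. Named after their values were seen, ACA1 (AT1G27770), a calcium pump, rose by 2.01 ± 0.24, BGLU40, a beta-glucosidase, by 1.98 ± 0.09, and NSL1, which limits cell death in defence, by 1.66 ± 0.12.

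Some loci did not follow the interval. Its brightest ones, the light-harvesting and photosystem genes CAB1, CAB2, CAB3 and PSAK, were named after their values were seen. They gave 0.17 ± 0.10, 0.25 ± 0.10, 0.30 ± 0.09 and 0.48 ± 0.10, under the interval's lower quartile of 0.69, and did not pass. Named after its values were seen, DYL1, a dormancy-associated gene repressed by sugar and auxin, had levels of 2.16 and 1.61 in ore15-2 leaves, against 3.54 and 3.58 in Col leaves. It fell by 1.67 on the log2 scale (SE 0.19), the only locus of the interval that fell. Its relative AT2G33830, on chromosome 2, is among the largest falls below. AGP31, an arabinogalactan protein, and BBX13, a B-box factor, also named after their values were seen, gave -0.05 ± 0.42 and -0.02 ± 0.12 and did not pass.

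All 4 SAUR genes that rose lay in the interval. SAUR proteins are small auxin-induced proteins that promote cell expansion. SAUR68 had levels of 1.12 and 1.36 in ore15-2 leaves, against -0.73 and -0.27 in Col leaves. It rose by 1.74 ± 0.19, AT1G29450 by 1.63 ± 0.20, SAUR63 by 1.48 ± 0.17 and AT1G29500 by 1.41 ± 0.16. These are near-identical neighbours, so that their probes may share signal. Of the 52 SAUR loci tested elsewhere limma called 0, with 7 higher and 5 lower at an unadjusted p under 0.05, and their median was 0.21 (0.05 to 0.29 over the alternatives).

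Outside the interval the largest rises were in genes close to background in Col leaves. AT5G35375, of unknown function, had levels of -2.0 and -2.39 in ore15-2 leaves, against -7.99 and -6.29 in Col leaves, and was at least 16.9-fold higher, the bound being set by the dimmest probe measured well above background on each Col array (adjusted p = 0.0267). AT5G18037, a NAC-domain protein, was at least 6.2-fold higher in ore15-2 leaves. RGP3, a reversibly glycosylated polypeptide thought to act in sugar supply for the cell wall, was at least 5.67-fold higher, and the RING proteins AT3G45580 and AT2G28920 were at least 4.78-fold and 4.08-fold higher. In all of these the probe was above background on both ore15-2 arrays and on neither Col array. AT3G03620, a MATE efflux protein, was at least 2.7-fold higher, and AT3G03240, a hydrolase, at least 1.87-fold.

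Other large rises were measured in both genotypes. AT2G41640, a glycosyltransferase of family 61, had levels of 1.98 and 1.76 in ore15-2 leaves, against -1.73 and -1.38 in Col leaves, and rose by 3.43 ± 0.28 (adjusted p = 0.0182). AT2G16367, a defensin-like peptide, had 1.94 and 2.18 in ore15-2 leaves, against -0.91 and -1.69 in Col leaves, and rose by 3.36 ± 0.38. In each the ore15-2 arrays lay far above both Col arrays. The other probes of AT2G41640 gave between 0.52 and 3.61, so the size of that rise depends on the probe. The non-coding RNA AT2G15555 rose by 3.44 ± 0.55 with 1 of 2 Col arrays above background. The flavonoid genes DFR and LDOX, which make anthocyanin precursors, rose by 2.96 ± 0.17 and 2.50 ± 0.23, and the clock gene LHY by 2.53 ± 0.33. AT5G05220, of unknown function, rose by 2.91 ± 0.46 with 1 of 2 Col arrays above background.

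The largest falls included several genes at high level in Col. GRP7, a glycine-rich RNA-binding protein under clock control, had levels of 5.52 and 4.43 in ore15-2 leaves, against 7.78 and 7.66 in Col leaves, and fell by 2.74 on the log2 scale (SE 0.37). AT2G33830, of the dormancy and auxin associated family, had 1.32 and 0.99 in ore15-2 leaves, against 4.23 and 4.58 in Col leaves, and fell by 3.25 (SE 0.17, adjusted p = 0.0182). All 5 of its probes gave between -3.36 and -3.14. ERD5, the proline dehydrogenase that starts proline breakdown, had -2.73 and -2.47 in ore15-2 leaves, against -0.14 and 0.77 in Col leaves, and fell by 2.92 (SE 0.35). AT5G23240, a DnaJ protein, fell by 5.52 (SE 0.38) with 1 of 2 ore15-2 arrays above background.

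For falls with no ore15-2 array above background only a bound can be given. MIOX2, a myo-inositol oxygenase that feeds sugars into cell wall precursors, had -7.65 and -8.06 in ore15-2 leaves, against -4.62 and -2.72 in Col leaves, and was at least 7.02-fold lower. COR27, a cold-regulated protein that also acts in the clock, was at least 6.02-fold lower, AT2G14247 at least 5.27-fold, TPS03, a terpene synthase, at least 3.23-fold, and the RING protein AT3G45560 at least 3.11-fold. AT3G45560 and AT3G45580, above, are close neighbours on chromosome 3 with opposite differences. PRR5, a clock pseudo-response regulator, fell by 3.40 (SE 0.23), and AT1G07050, a CCT-motif protein, by 3.57 (SE 0.25).

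**Figure D3:**
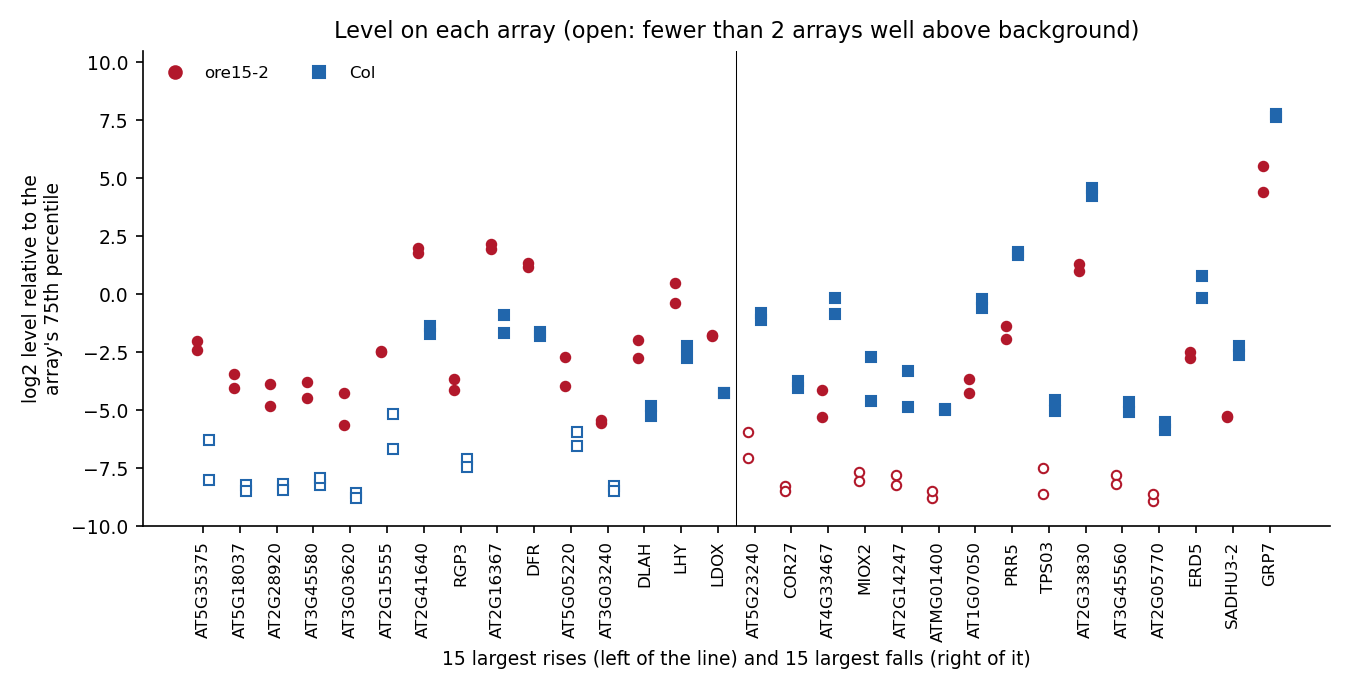
Level on each array (log2 relative to the array's 75th percentile, vertical axis) of the 15 loci with the largest rises and the 15 with the largest falls among those that passed, ore15-2 as circles and Col as squares. Open symbols mark a genotype with fewer than 2 arrays well above background, which holds for most of the largest rises in Col. The loci were chosen to have both ore15-2 arrays on the same side of both Col arrays.

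Gene families were formed by words in the description of each locus, 102 in all, and are given here without the interval. Among the families defined by a protein type the most falls were in the pentatricopeptide repeat (PPR) proteins, which bind and process RNA in mitochondria and chloroplasts. Of 234 tested, 0 rose and 24 fell (10.3%, against 1.63% of all loci outside the interval), and 6 of the falls held after re-adjustment. Their median was -0.26, against 0.00 for all loci outside the interval, and in 145 of them (62.0%, against 26.7%) both ore15-2 arrays lay below both Col arrays. At an unadjusted p under 0.05, 3 were higher and 99 lower. The only PPR genes that rose, EMB2279 (1.07 ± 0.08) and AT1G26500 (0.77 ± 0.08), lay in the interval.

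The individual PPR falls were moderate. AT3G25970 had levels of -5.23 and -5.55 in ore15-2 leaves, against -4.34 and -4.15 in Col leaves, and fell by 1.15 (SE 0.14). AT3G08820 had -4.12 and -4.36 in ore15-2 leaves, against -3.26 and -3.19 in Col leaves, and fell by 1.02 (SE 0.11). AT5G42450 fell by 1.06 (SE 0.15) and AT4G14050 by 1.01 (SE 0.11). The levels of these genes are low in both genotypes. On slide 2 the family median was -0.32. Without Col replicate 2 only 1 PPR gene fell, without Col replicate 1 or ore15-2 replicate 2 limma called 0, and without ore15-2 replicate 1 it called 57 lower and 2 higher, while the median lay between -0.32 and -0.16 over all alternatives.

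Other parts of the gene expression machinery shifted less. Of 344 ribosomal protein genes, of the cytosol and organelles, 2 rose (0.581%, against 0.927%) and 1 fell (0.291%, against 1.63%). Their median was -0.11 (-0.20 to -0.04 over the alternatives), and 0 passed after re-adjustment. RSU1, a ribosomal protein L13 homologue, had -5.92 and -5.98 in ore15-2 leaves, against -7.04 and -7.08 in Col leaves, with no Col array above background, and was at least 1.35-fold higher. AT5G24490, a putative 30S protein, fell by 0.58 (SE 0.08). Of 62 translation factors 1 fell, AT4G27130, an SUI1-type initiation factor, by 0.81 (SE 0.12). RNA-binding proteins numbered 240, of which 1 rose (0.417%, against 0.927%) and 4 fell (1.67%, against 1.63%), 0 of them after re-adjustment. The largest falls were GRP7 and its relative CCR1 (AT4G39260), which fell by 1.52 (SE 0.22). Among 19 chaperonins RbcX1, an assembly chaperone of Rubisco, had 0.52 and 0.12 in ore15-2 leaves, against 2.18 and 2.27 in Col leaves, and fell by 1.91 (SE 0.17).

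Cell division families had medians below 0 with few calls. Of 44 histone genes limma called 0, with 0 higher and 17 lower at an unadjusted p under 0.05. Their median was -0.42, and 33 of them had both ore15-2 arrays below both Col arrays, against 26.7% of all loci outside the interval. Of 37 DNA replication genes 0 passed, with 0 higher and 5 lower unadjusted and a median of -0.27 (-0.45 to -0.10 over the alternatives), and 35 of them lay below 0 (94.6%, against 49.4%). Of 48 cyclins 0 passed, with 2 higher and 4 lower unadjusted and a median of -0.23 (-0.36 to -0.06). Of 24 kinesins, the motors of mitosis and transport, 0 passed, with 2 higher and 2 lower unadjusted and a median of -0.55. That median was -0.33 in the authors' deposited table and -0.26 and -0.23 in the normexp settings. Of 20 tubulins 2 fell (10%, against 1.63%), 0 of them after re-adjustment, with a median of -0.35 (-0.36 to -0.28).

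These shifts were larger on ore15-2 replicate 2. The histone medians were -0.23 and -0.18 for ore15-2 replicate 1 against Col replicates 1 and 2, and -0.62 and -0.63 for ore15-2 replicate 2. For kinesins they were -0.28 and -0.01, and -0.90 and -0.75. Without ore15-2 replicate 1 limma called 16 histone genes lower and 1 higher, and without ore15-2 replicate 2 it called 0. Among the tubulins TUB5 had levels of 1.35 and 1.17 in ore15-2 leaves, against 2.07 and 2.03 in Col leaves, and fell by 0.79 (SE 0.10). TUB1 fell by 0.64 (SE 0.10), but another probe of it gave 0.16. The tubulin median stayed between -0.21 and -0.38 in each pairing of arrays. In such bulk samples fewer dividing cells and less RNA per cell cannot be told apart.

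**Figure D4:**
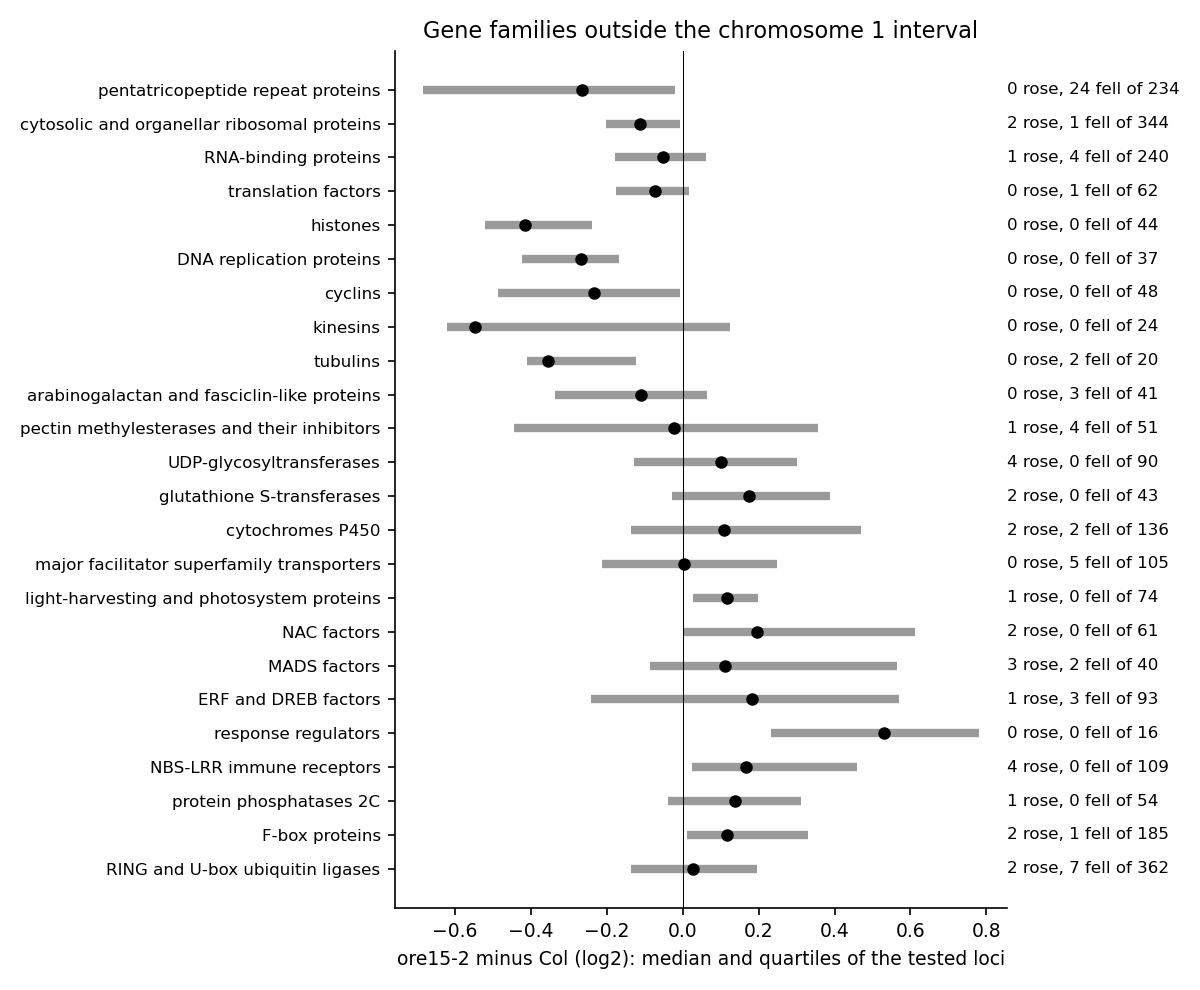
Median (point) and quartiles (bar) of the difference between ore15-2 and Col leaves (log2, horizontal axis) over the tested loci of 24 gene families outside the chromosome 1 interval, with the numbers that rose and fell at the right. Of the families drawn, kinesins (-0.55), histones (-0.42) and tubulins (-0.35) lie furthest below 0, with kinesins at -0.26 and -0.23 and histones at -0.41 in the normexp settings, and response regulators (0.53) furthest above it.

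Calls in cell wall families were few in number. Pectin methylesterases and their inhibitors, which set how stiff pectin is, had 1 riser (1.96%, against 0.927%) and 4 fallers (7.84%, against 1.63%) of 51. Of these, 0 and 1 passed after re-adjustment. The inhibitor-family gene AT5G62360 had levels of -0.42 and -1.09 in ore15-2 leaves, against 2.06 and 1.77 in Col leaves, and fell by 2.67 (SE 0.26), while its neighbour AT5G62350 fell by 0.63 (SE 0.08) and PME3 by 0.64 (SE 0.09). Of 41 arabinogalactan and fasciclin-like proteins 0 rose and 3 fell (7.32%, against 1.63%). The fallers were FLA12 by 0.91 (SE 0.11), FLA11 by 0.86 (SE 0.09) and AGP14 by 0.79 (SE 0.12), and after re-adjustment only FLA11 passed. FLA11 and FLA12 are known from secondary walls of xylem and fibres. Of 22 expansins EXPA14 fell, by 0.76 (SE 0.11), and of 26 cellulose synthase-type genes CSLB04 rose, by 1.38 ± 0.21. The acetylation-related TBL33 fell by 0.72 (SE 0.10). Among 59 pectin lyase-like proteins AT2G36710 was at least 3.2-fold higher, with no Col array above background.

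Families of specialised and detoxifying metabolism differed in direction. Of 90 UDP-glycosyltransferases 4 rose (4.44%, against 0.927%), 2 of them after re-adjustment, and 0 fell. UGT71B6, which glucosylates abscisic acid, rose by 0.99 ± 0.10, and AT4G36770 by 1.06 ± 0.11. Of 43 glutathione S-transferases, detoxifying enzymes induced by many stresses, 2 rose (4.65%, against 0.927%), 1 of them after re-adjustment, and 0 fell. Their median was 0.17 (0.10 to 0.21 over the alternatives). GSTF6 had levels of 2.25 and 2.24 in ore15-2 leaves, against -0.21 and 0.07 in Col leaves, and rose by 2.32 ± 0.20, and ERD9 rose by 0.89 ± 0.14. The interval held 1 more riser of each family, UGT78D1 and GSTU13 (1.01 ± 0.14).

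Cytochromes P450 had 2 risers (1.47%, against 0.927%) and 2 fallers (1.47%, against 1.63%) of 136, of which 0 and 1 passed after re-adjustment. CYP71B22 had -3.44 and -4.09 in ore15-2 leaves, against -1.40 and -1.72 in Col leaves, and fell by 2.20 (SE 0.25). CYP81D1 rose by 0.77 ± 0.12, and TT7, of flavonoid synthesis, by 1.27 ± 0.17. Of 121 methyltransferases 1 rose (0.826%, against 0.927%) and 4 fell (3.31%, against 1.63%), of which 0 and 1 passed after re-adjustment. The fallers include IGMT1 and IGMT4, which methylate indole glucosinolates, by 0.73 (SE 0.10) and 0.70 (SE 0.09), and ACL5, which makes thermospermine, a polyamine that restrains xylem differentiation, by 0.73 (SE 0.08). Of 11 terpene synthases 2 fell (18.2%, against 1.63%), 0 of them after re-adjustment. They are TPS03 above and GA2, ent-kaurene synthase of gibberellin synthesis, which fell by 0.94 (SE 0.11). Of 20 jacalin and mannose-binding lectins 2 rose (10%, against 0.927%), 1 of them after re-adjustment. AT1G52000 rose by 1.81 ± 0.19 and AT1G52100 by 1.58 ± 0.20. These are genes with lectin domains near each other on chromosome 1, and another probe of AT1G52000 gave 0.87.

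Transport and photosynthesis showed few calls. Of 105 major facilitator transporters 0 rose and 5 fell (4.76%, against 1.63%), 2 of them after re-adjustment. AT1G22570 had levels of -0.89 and -0.95 in ore15-2 leaves, against 0.92 and 1.09 in Col leaves, and fell by 1.92 (SE 0.10, adjusted p = 0.0182), and AT3G16180 fell by 0.97 (SE 0.11). SWEET16, a sugar transporter of the vacuole membrane, fell by 0.64 (SE 0.09). PTR5, a dipeptide transporter, rose by 0.96 ± 0.15, and the amino acid transporter AT3G09340 by 1.53 ± 0.16. ZIP10, a zinc transporter, was at least 1.08-fold higher, with no Col array above background. Of 74 light-harvesting and photosystem genes 1 rose and 0 fell, with a median of 0.12 that was 0.0067 under quantile normalization, 0.0018 in the authors' deposited table and -0.012 under normexp with quantile normalization. The riser was ELIP1, an early light-induced protein that protects against excess light, with levels of 2.15 and 2.02 in ore15-2 leaves, against 0.46 and 0.88 in Col leaves, and a rise of 1.41 ± 0.16.

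Among transcription factors MADS and B-box genes had the most calls for their number. Of 40 MADS factors 3 rose (7.5%, against 0.927%) and 2 fell (5%, against 1.63%), of which 3 and 1 passed after re-adjustment. SOC1 (AGL20), a promoter of flowering, had levels of 0.69 and 0.90 in ore15-2 leaves, against 2.21 and 1.94 in Col leaves, and fell by 1.28 (SE 0.13). SEP3, a floral organ factor, had -5.49 and -5.90 in ore15-2 leaves, against -4.24 and -3.77 in Col leaves, and fell by 1.69 (SE 0.23). PI, another floral organ factor, had -3.30 and -3.25 in ore15-2 leaves, against -5.33 and -4.98 in Col leaves, and rose by 1.88 ± 0.20. The floral factors moved in opposite directions, at low levels. AGL86 and AGL66 were at least 1.33-fold and 1.2-fold higher, with no Col array above background.

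Of 23 B-box factors, many of which act in light and day-length signalling, 2 rose (8.7%, against 0.927%) and 2 fell (8.7%, against 1.63%). Of these, 0 and 2 passed after re-adjustment. BBX19 rose by 1.00 ± 0.12 and BBX18 by 0.97 ± 0.14, while COL9 fell by 1.06 (SE 0.12) and AT2G47890 by 0.91 (SE 0.09). BBX15, in the interval, had levels of 4.52 and 4.89 in ore15-2 leaves, against 3.59 and 3.50 in Col leaves, and rose by 1.16 ± 0.16. Of 22 Dof factors 2 rose (9.09%, against 0.927%), 1 of them after re-adjustment. CDF2, a repressor of flowering, rose by 1.16 ± 0.15 and AT1G64620 by 1.08 ± 0.10.

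Of 61 NAC factors 2 rose (3.28%, against 0.927%), 1 of them after re-adjustment, and 0 fell. Their median was 0.20, but 0.06 in the authors' deposited table and 0.06 and 0.08 in the normexp settings. NAC032, a stress-induced factor, had -1.53 and -1.77 in ore15-2 leaves, against -2.68 and -2.76 in Col leaves, and rose by 1.07 ± 0.13. Of 93 ERF and DREB factors 1 rose (1.075%, against 0.927%) and 3 fell (3.226%, against 1.63%), 0 of them after re-adjustment. ERF1, which joins ethylene and jasmonate signals, had -3.03 and -3.44 in ore15-2 leaves, against -5.30 and -5.44 in Col leaves, and rose by 2.14 ± 0.27. CRF4, a cytokinin response factor, fell by 1.09 (SE 0.16) and TINY (AT5G25810) by 0.80 (SE 0.12), and DREB2C was at least 3.13-fold lower. Of 83 MYB factors MYB47 and MYB95 rose, by 1.26 ± 0.20 and 1.02 ± 0.14, and MYBL2, a repressor of anthocyanin synthesis, fell by 0.73 (SE 0.07). WRKY57 rose by 1.12 ± 0.11. WOX1, which acts in lateral growth of the leaf blade, had -0.89 and -0.80 in ore15-2 leaves, against -1.63 and -1.64 in Col leaves, and rose by 0.79 ± 0.10. ABI5, a bZIP factor of abscisic acid response, fell by 1.40 (SE 0.21) with 1 of 2 ore15-2 arrays above background. Of 7 PLATZ loci tested, ORE15 among them, limma called 0, with 2 higher and 1 lower at an unadjusted p under 0.05.

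The hormone families formed here had no call outside the interval. The response regulators, the early targets of cytokinin signalling and its effectors, had differences above 0 in 16 of 16 tested loci (against 50.6% of all loci outside the interval) and a median of 0.53. In 13 of them (81.2%, against 24.9%) both ore15-2 arrays lay above both Col arrays. By limma 0 passed, and 4 were higher at an unadjusted p under 0.05. The size depended on the Col array. The medians were 0.65 and 1.05 for ore15-2 replicates 1 and 2 against Col replicate 1 on the other slide, and 0.15 and 0.27 against Col replicate 2 on the same slide. Of 30 Aux/IAA and GH3 genes 0 passed, with 7 higher and 1 lower unadjusted, and of 9 JAZ repressors of jasmonate signalling 0 passed, with 3 higher and 0 lower unadjusted. GID1A, a gibberellin receptor counted with the alpha/beta-hydrolases, fell by 0.52 (SE 0.08).

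**Figure D5:**
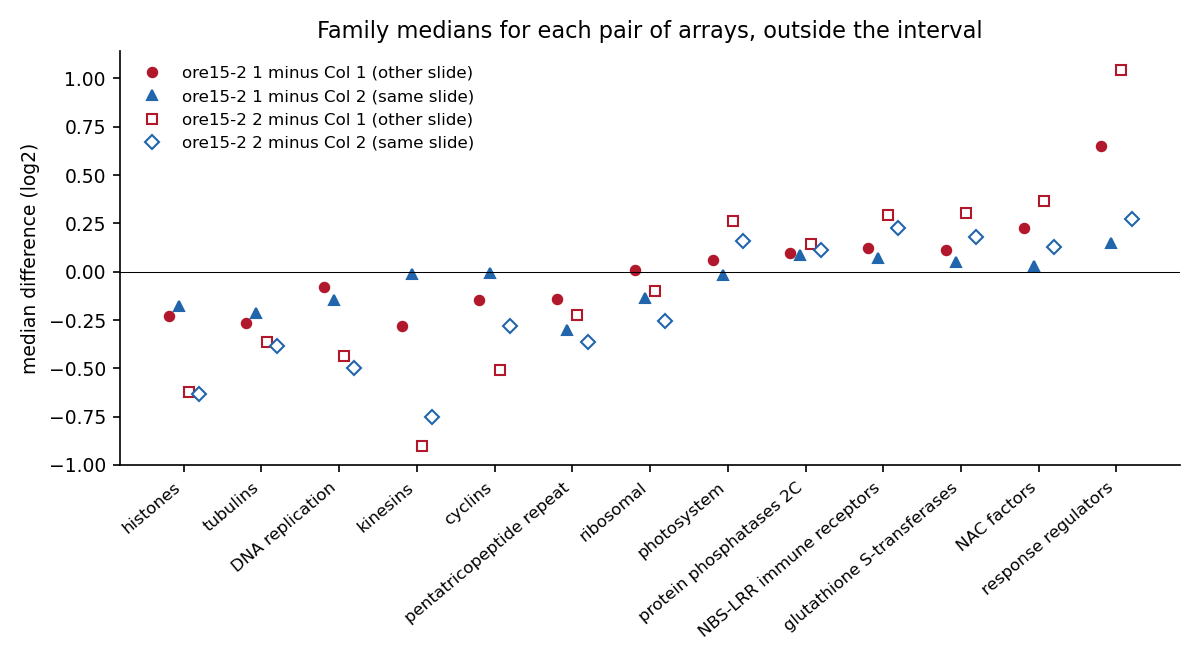
Median difference (log2, vertical axis) of 13 gene families outside the chromosome 1 interval for each pairing of an ore15-2 array with a Col array, on the same slide or on the other slide. Histones, DNA replication genes and kinesins lie lower for ore15-2 replicate 2 (open symbols), response regulators lie higher against Col replicate 1 (circles and squares), and tubulins and protein phosphatases 2C vary little.

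Defence and signalling families differed in direction. Of 109 NBS-LRR immune receptors, which sense pathogen effectors, 4 rose (3.67%, against 0.927%) and 0 fell, with 24 higher and 2 lower at an unadjusted p under 0.05 and a median of 0.17. AT5G58120 had levels of -0.90 and -0.89 in ore15-2 leaves, against -2.71 and -2.39 in Col leaves, and rose by 1.65 ± 0.14. WRR4, a receptor that gives white rust resistance, rose by 1.17 ± 0.17 (another probe gave 0.67), and AT1G50180 by 0.87 ± 0.12. After re-adjustment 1 of the rises passed. Of 26 pathogenesis-related proteins 15 lay below 0 (57.7%, against 49.4% of all loci outside the interval), and of 19 chitinases and beta-1,3-glucanases 14 (73.7%). These 2 families had 1 and 0 risers and 0 fallers by limma. At an unadjusted p under 0.05, 3 and 0 of their members were higher and 5 and 3 lower. Of 54 protein phosphatases 2C, among them brakes on abscisic acid signalling, 1 rose and 0 fell, with a median of 0.14 (0.09 to 0.14 over the alternatives). The riser was AT5G02760, by 0.71 ± 0.11. SNRK2-8, a stress-activated kinase, had -0.64 and 0.04 in ore15-2 leaves, against -2.0 and -2.12 in Col leaves, and rose by 1.76 ± 0.24, and the kinase AT4G35030 rose by 1.19 ± 0.11. Of 27 cysteine-rich receptor-like kinases 0 rose and 1 fell, CRK28 by 1.33 (SE 0.10), with 3 higher and 2 lower unadjusted. The median of this family was 0.30 (0.03 to 0.47 over the alternatives). In 15 of its loci (55.6%, against 24.9%) both ore15-2 arrays lay above both Col arrays, and in 4 (14.8%, against 26.7%) both lay below. Of 129 leucine-rich repeat receptor kinases 1 rose (0.775%, against 0.927%) and 2 fell (1.55%, against 1.63%), with 15 higher and 26 lower unadjusted. PXY, the receptor that maintains vascular stem cells, fell by 0.52 (SE 0.08). In the interval the leucine-rich repeat kinases AT1G29720 and AT1G27190 rose by 1.86 ± 0.28 and 0.93 ± 0.11.

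Stress proteins moved both ways. HSP70 (AT3G12580), a chaperone induced by heat, had levels of -1.71 and -1.77 in ore15-2 leaves, against -3.55 and -3.30 in Col leaves. It rose by 1.69 ± 0.19, the only call among 23 genes of the HSP70, HSP90 and HSP100 families. Of 58 cold-regulated, dehydrin and LEA genes 0 rose and 4 fell (6.9%, against 1.63%), 3 of them after re-adjustment, COR27 above, AT3G19430 by 1.09 (SE 0.12), AT2G41990 by 0.89 (SE 0.09) and LTI30, a dehydrin, by 0.64 (SE 0.10). COR314-TM2, in the interval, rose by 1.10 ± 0.11. The DnaJ protein AT1G56300 had 1.18 and 0.09 in ore15-2 leaves, against 3.30 and 3.04 in Col leaves, and fell by 2.53 (SE 0.37). WCRKC1, a chloroplast thioredoxin, fell by 1.29 (SE 0.16), and the defensin-like AT5G44973 by 2.67 (SE 0.19). The berberine bridge-like enzyme AT4G20860 rose by 1.62 ± 0.20.

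In protein turnover the share of calls among the RING, U-box and F-box families was near that of all loci. Of 362 RING and U-box ligases 2 rose (0.552%, against 0.927%) and 7 fell (1.93%, against 1.63%). Of 185 F-box proteins 2 rose (1.08%) and 1 fell (0.541%), with a median of 0.12 (0.06 to 0.15 over the alternatives). Beyond those already named, the RING protein AT1G49230 fell by 1.20 (SE 0.09), and the F-box protein AT5G65850 rose by 0.97 ± 0.15. PUB45, a U-box ligase in the interval, rose by 1.25 ± 0.09. Of 50 aspartyl proteases 2 fell (4%, against 1.63%) and of 30 serine carboxypeptidases 2 (6.67%). Of 33 papain-like proteases 1 fell (3.03%) and of 28 subtilisin-like proteases 1 (3.57%), and 0 rose in these families. In that order 0, 0, 1 and 1 of the falls passed after re-adjustment. At an unadjusted p under 0.05, 6, 2, 3 and 1 members were higher and 17, 7, 8 and 8 lower. Of all loci outside the interval 9.54% were higher and 11.4% lower by that rule. RD19, a papain-like protease induced by drought, had levels of 4.31 and 4.45 in ore15-2 leaves, against 5.20 and 5.19 in Col leaves, and fell by 0.82 (SE 0.09), and the subtilase AT4G21650 fell by 1.18 (SE 0.10). Of 40 proteasome subunits limma called 0, with 2 higher and 0 lower at an unadjusted p under 0.05.

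Loci outside named protein families were called about as often as all loci. Of 2842 loci of unknown function outside the interval 18 rose (0.633%, against 0.927%) and 52 fell (1.83%, against 1.63%). AT4G33467 had levels of -4.10 and -5.31 in ore15-2 leaves, against -0.17 and -0.83 in Col leaves, and fell by 4.20 (SE 0.64), and AT1G17665 fell by 2.33 (SE 0.16) with 1 of 2 ore15-2 arrays above background. Of 198 transposable element genes 1 rose (0.505%, against 0.927%) and 3 fell (1.515%, against 1.63%). The fallers include SADHU3-2, by 2.84 (SE 0.23), and AT2G05770, at least 1.75-fold lower. SADHU1-2, in the interval, rose by 1.00 ± 0.08. MIR172a, the precursor locus of a microRNA that acts on AP2-type regulators of flowering, was at least 1.56-fold lower. The mitochondrial locus ATMG01400 was at least 2.84-fold lower.

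Marker genes of leaf cell types passed no test. Of the mesophyll, stomatal, trichome, phloem and xylem markers 24 were tested and limma called 0, with 5 at an unadjusted p under 0.05, a share held by 22.3% of all tested loci. The trichome markers had the widest range, from -2.38 to 0.81, the lowest being MYB0, an activator of trichome formation, with -4.15 and -7.15 in ore15-2 leaves, against -3.01 and -3.52 in Col leaves (adjusted p = 0.247 by limma). The mesophyll markers lay between -0.0028 and 0.39, the stomatal markers between -0.19 and 0.69, and the xylem markers between -0.43 and -0.04. The summed mesophyll marker level was 10.29 and 10.45 in ore15-2 leaves, against 10.05 and 10.16 in Col leaves. This sum is not free of the raised interval, since CAB2, 1 of the 5 mesophyll markers, lies in it (0.25 ± 0.10). Of 8 shoot meristem and boundary genes, STM, WUS, CLV3 and KNAT1 were above background on no array, as was SAG12, of late senescence. CLV1 and CUC3 of the same list were above background on both arrays of ore15-2 and of Col. The 3 genes of that list that were tested had 0 calls by limma, with 1 at an unadjusted p under 0.05. The root and seed lists had 0 calls by limma among 6 tested genes (2 at an unadjusted p under 0.05), and the floral list held PI and SEP3 as given above, with AG, AP3 and LFY above background on no array.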

How the data were processed

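Total RNA of young leaves was hybridised to 1-colour Agilent arrays, 2 biological samples per genotype. The deposited scanner files hold spot intensity values, which the authors extracted (Agilent Feature Extraction, version 11.5 in the submitters' processing notes), and the processed signal is already background-subtracted, per the file headers. A table of log2 values deposited by the authors served as an alternative. Of 43603 probes 37257 had exactly 1 locus in the array-element table, giving 28309 loci, and for the 7098 loci with several probes the probe brightest over all arrays was used. The log2 of the processed signal minus each array's 75th percentile was fitted with limma 3.58.1 in R 4.3.3 over all 6 arrays, contrast ore15-2 minus Col. A locus was tested where in 1 genotype or more both arrays had its probe well above background. Symbols came from RefSeq, and coordinates are TAIR10, per the file headers. The fit was tested on simulated data.

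Genes were named by rule: ORE15, the 15 largest rises and 15 largest falls that passed without overlap of the arrays and above background on both arrays of the higher genotype, and up to 4 risers and 4 fallers of each family with at least 5 tested loci. The members, families and lists were chosen with earlier results of these data known. Replicate numbers only name the arrays: deviations of same-numbered ore15-2 and Col arrays correlated at 0.13, and those of the other pairs of genotypes at -0.09 and -0.01. In the normexp alternatives, spots with a local background more than 100 above their signal (18 on Col replicate 1 and 9 on ore15-1D replicate 2) took the array's median background. The other alternatives were the normalization, the filter, the probe summary, slide and replicate blocks, the arrays in the fit, a trend in the spread, the threshold and leaving out each array.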

Additional observations from a re-analysis of the deposited data

Results flagged for a closer look

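Among 2853 tested probes with no locus in the array-element table, which enter no comparison above, 1 passed limma: probe A_84_P791837 was higher in ore15-2 leaves than in Col leaves by 4.04 on the log2 scale. It was singled out as a signal outside the measured loci, and its gene is not named here.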

How the results depend on the processing

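None of 2681 values of 153 genes compared changed sign under the alternatives, leaving aside the normexp run with all local backgrounds kept. This says little, since most were named for passing with arrays that did not overlap. It does not cover every gene given above. AGP31, BBX13 and AT1G31050, which did not pass, changed sign on slide 2 alone, to 0.36, 0.09 and -0.03. Of 414 medians of the 23 families compared 15 changed sign, in 5 families. The light-harvesting and photosystem median was -0.012 under normexp with quantile normalization, and that of pectin methylesterases 0.038 under normexp with the 75th percentile. The median of major facilitators, 0.0037, was -0.010 under quantile normalization, -0.013 with slide as a block or slide 2 only, -0.011 with all arrays above background and -0.043 to -0.0048 without single arrays. The median of cold-regulated proteins, 0.064, was -0.017 with slide as a block or slide 2 only and without Col replicate 1, and -0.00067 without ore15-2 replicate 2, and that of UDP-glycosyltransferases was -3.2e-05 without that array; without ore15-2 replicate 1 the cold-regulated median was 0.11 and the UDP-glycosyltransferase median 0.14. The cause of the changes below was not tested.

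Against 760 changed loci (435 higher, 325 lower; 251 higher in the interval), a log2 difference of at least 1 left 363 (234 and 129; 129 in the interval), and no filter on background 95 (65 and 30; 37). Normexp with quantile normalization gave 1255 (701 and 554), normexp with the 75th percentile 1158 (657 and 501) and a trend in the spread 1159 (592 and 567). The interval's median, 0.92, became 0.77 and 0.78 under these normexp settings, 0.81 in the authors' deposited table and 0.91 with all arrays above background. With all local backgrounds kept, a setting chosen after seeing the data, normexp gave 0 higher and 0 lower calls (725 at an unadjusted p under 0.05) and an interval median of 0.60. Without the interval, also chosen after seeing the data, 151 changed (56 and 95).

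With slide as a block limma called 1 higher and 0 lower (0 in the interval, 3616 unadjusted), and with slide 2 only 0 (2330 unadjusted), both with an interval median of 0.90. With only the ore15-2 and Col arrays it called 0 higher and 0 lower (3371 unadjusted). With a replicate block, which pairs arrays by number alone, it called 0 higher and 3 lower, 0 of them in the interval (4254 unadjusted). Leaving out each ore15-2 and Col array in turn, the ore15-1D arrays kept, gave 0 to 1343 changed, 0 to 569 higher, 0 to 774 lower, 0 to 209 higher in the interval and an interval median of 0.90 to 0.96. The lowest counts came without ore15-2 replicate 2 (0 calls, 3269 unadjusted) and without Col replicate 1 (1 call), and the highest without ore15-2 replicate 1. Where 1 array was left in a genotype, it was assumed to vary like the others. Signal over background limits the loci given as bounds.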
